A study of Mus musculus with 9 samples.

Results

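Of 9 bone marrow leukemia samples, 6 were compared here, the 3 libraries labelled IRF7-/- c-kit+ and the 3 labelled WT c-kit-. They were chosen by their labels, with no measured value used. All 9 libraries came from C57BL/6J mice and hold GFP+ leukemia cells driven by the MLL-AF9 fusion, which had been put into c-kit+ marrow cells with an MSCV retrovirus. Recipients aged 6 to 8 weeks received the same number of leukemia cells each without irradiation, and cells were sorted from the marrow at day 18. The WT c-kit- cells came from leukemia of wild-type origin (labelled control-GFP) and lacked surface c-kit, whereas the IRF7-/- c-kit+ cells came from leukemia started in marrow without a working Irf7 gene and carried surface c-kit. The knockout allele had a PGK-beta-geo cassette in place of exons 2 and 3, and the recipients were not knockout. Genotype and c-kit sort change together between these groups and cannot be told apart. The 3 WT c-kit+ libraries, which share genotype with WT c-kit- and the sort with IRF7-/- c-kit+, were therefore set beside them. The sources used here do not say whether the libraries of a group came from separate mice, so p-values measure the spread between these libraries, which may be technical.

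IRF7 is a transcription factor of the interferon regulatory factor family. It drives type I interferon genes and is itself induced by interferon. c-Kit is the receptor for stem cell factor and marks immature blood cells, and in MLL-AF9 leukemia the c-kit+ cells are the fraction usually studied as enriched for leukemia-propagating cells. VCAM1 is an adhesion molecule that binds integrin alpha4beta1. As myeloid cells mature, primary granule proteins are made first, at the promyelocyte stage, secondary and tertiary granule proteins follow in the granulocyte line, and monocytes acquire receptors, lysosomal enzymes and MHC class II.

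The targeted gene and both markers were read in every library first, as TPM, a transcript level that allows for gene length and depth. Kit (chromosome 5, 75574916 to 75656722, plus strand, GRCm38) was at 0.52, 1.19 and 3.03 TPM in the WT c-kit- libraries, whereas the libraries labelled IRF7-/- c-kit+ had 85.5, 70.3 and 85.7 TPM. The groups did not overlap, and Kit followed the sort label, with 50.7, 58.5 and 51.3 TPM in WT c-kit+. The difference was 5.09 ± 0.33 (log2 fold change of TPM + 1 ± SE, n = 3 per group, limma adjusted p = 4.01e-05). Vcam1 (chromosome 3, 116109949 to 116129688, minus strand) was near 0 in WT c-kit-, at 0.22, 0.32 and 0.5 TPM, and the libraries labelled IRF7-/- c-kit+ had 106, 76.9 and 107 TPM. WT c-kit+ lay between them at 9.2, 7.42 and 12.7 TPM. The Vcam1 difference was 6.17 ± 0.16 (limma adjusted p = 2.22e-06).

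Irf7 did not follow its label fully. WT c-kit- had 23.5, 22.3 and 32.3 TPM, and the libraries labelled IRF7-/- c-kit+ had 12.8, 5.97 and 7.95 TPM, a difference of -1.49 ± 0.27 on the log2 scale (limma adjusted p = 0.00298), but WT c-kit+ had only 5.31, 3.91 and 3.36 TPM. The libraries labelled IRF7-/- c-kit+ were thus lower than WT c-kit- and all above WT c-kit+. A gene-level value counts exons outside the replaced ones and, where strand was not used, reads of Phrf1, which overlaps Irf7 on the other strand (Irf7 lies on chromosome 7, 141262706 to 141266481, minus strand). The value therefore checks the label only weakly, and directions below are those of the libraries as labelled. With 3 against 3, an exact two-sided permutation test cannot give less than 0.1, which is the value it gave for all 3 genes.

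**Figure D1:**
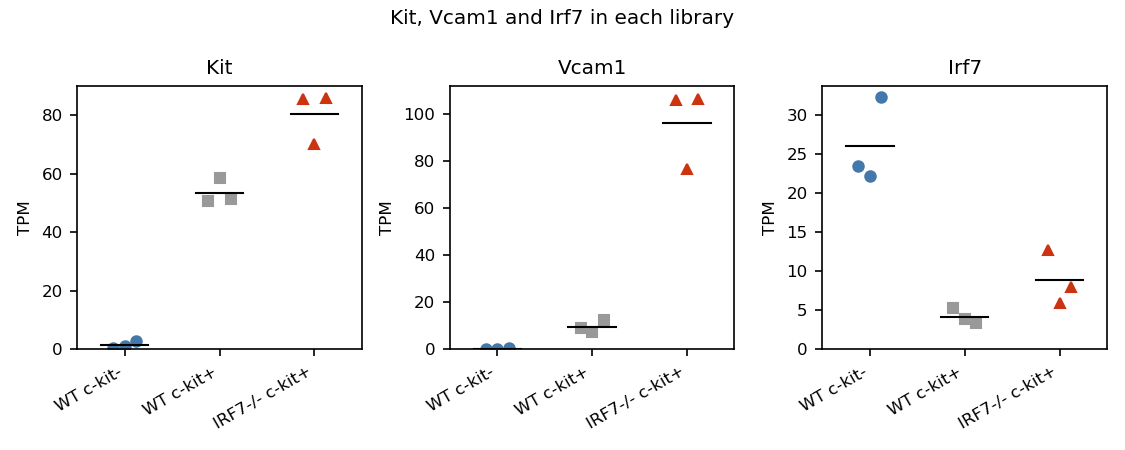
TPM of Kit, Vcam1 and Irf7 (y axes, linear, from 0) in each of the 9 libraries, with replicates 1 to 3 from left in each group and a line at the group mean. Kit was high in both c-kit+ groups, Vcam1 was highest in the libraries labelled IRF7-/- c-kit+, and Irf7 was highest in WT c-kit- and lowest in WT c-kit+.

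A gene was tested if 3 or more of the 6 libraries reached 1 TPM. It was called if its mean log2 level moved by 1 or more in either direction and its limma adjusted p was under 0.05. Of 13510 genes tested 2738 were called, or 20.3%. Of them 1135 were higher in the libraries labelled IRF7-/- c-kit+ (8.4%) and 1603 were lower (11.9%). The falls were also deeper, with 295 called genes at or below −3 on the log2 scale against 119 at or above 3. The median over all genes tested was 0.03. The 3 and 3 libraries did not overlap in 9064 genes, 67.1% of those tested, and in 2714 of the 2738 called. In the same fit of the neighbouring groups, 11.7% of genes were called between the libraries labelled IRF7-/- c-kit+ and WT c-kit+, and 14.4% between WT c-kit+ and WT c-kit-. These comparisons share libraries and are given only side by side.

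Called genes also took different shares of the transcriptome. In WT c-kit-, the genes called lower held 12.8 to 16.5% of all TPM, against 2.74 to 3.28% in the libraries labelled IRF7-/- c-kit+. The genes called higher held 1.79 to 1.84% against 6.29 to 7.496%. They were picked on this contrast, so these shares describe size and are not a test. Library profiles correlated at 0.973 to 0.984 within groups and at 0.851 to 0.883 between them, as a description across genes.

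The 10 largest rises were Xlr, Vill, Rps4l, Vcam1, Il22ra2, Nkg7, Mgl2, Nmral1, Adgrl4 and Hdc. Xlr, an X-linked lymphocyte-regulated gene of a multicopy family, rose from 0, 0.21 and 0 TPM to 153, 134 and 156 TPM (7.12 ± 0.12, limma adjusted p = 1.03e-06). The villin-like gene Vill went from 1.09, 0.12 and 0.4 to 132, 119 and 146 TPM, and Rps4l, annotated as a transcribed processed pseudogene of a ribosomal protein gene, from 0, 0.08 and 0 to 101, 77 and 95.6 TPM. Reads of Xlr and Rps4l can be shared with near-identical copies, so their levels are uncertain. Nmral1, a NADPH sensor, rose from 1.12, 0.11 and 0.47 to 85, 78.2 and 73.1 TPM. These 4 genes were also under 1 TPM in every WT c-kit+ library, so they were high only in the libraries labelled IRF7-/- c-kit+.

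The other large rises differed in where WT c-kit+ stood. Nkg7, a granule membrane protein of cytotoxic cells, rose from 0.75, 1.97 and 1.53 to 165, 89.7 and 166 TPM (5.85 ± 0.29, limma adjusted p = 1.55e-05) and was as high in WT c-kit+, at 165, 192 and 136 TPM. Il22ra2, the soluble receptor that binds IL-22, rose from 0.67, 0.51 and 0.52 to 121, 85.6 and 127 TPM, with 3.31, 3.19 and 2.96 TPM in WT c-kit+. The lectin Mgl2 went from 3.12, 3.06 and 3.38 to 258, 191 and 248 TPM, with 17.3, 28.8 and 19 TPM in WT c-kit+. Mgl2, Il22ra2 and Vcam1 were thus intermediate in WT c-kit+. Adgrl4, an adhesion G protein-coupled receptor, rose from 0.14, 0.17 and 0.28 to 57.5, 47.5 and 60.1 TPM. Hdc, which makes histamine from histidine, rose from 1.91, 1.73 and 7.16 to 179, 105 and 173 TPM (5.21 ± 0.44), and the groups were far apart for both genes. In WT c-kit+ Adgrl4 was at 3.16, 3.49 and 2.56 TPM. Hdc was at 6.93, 5.14 and 8.61 TPM there and overlapped WT c-kit- (limma adjusted p = 0.127).

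The 10 largest falls were Fn1, S100a4, Gm42031, Klf4, Trem2, Cd74, Ahnak, Nr4a1, Gm40645 and Rnase6. Fn1, which encodes fibronectin, fell from 1058, 642 and 708 TPM to 1.83, 3.23 and 3.57 TPM (-7.69 ± 0.24, limma adjusted p = 4.19e-06). S100a4, a calcium-binding protein of motile cells, fell from 967, 944 and 1031 to 3.97, 11.8 and 4.14 TPM, and Klf4, a transcription factor needed for monocyte maturation, from 138, 131 and 131 to 0.21, 0.57 and 0.54 TPM. Every library labelled IRF7-/- c-kit+ was far under every WT c-kit- library for these genes. Trem2, a lipid-sensing receptor of macrophages, fell from 92.8, 116 and 83.5 to 0.2, 0.04 and 0.37 TPM, and Ahnak, a large scaffold protein, from 249, 209 and 208 to 1.93, 2.33 and 2.28 TPM. Rnase6, an antimicrobial ribonuclease, fell from 167, 145 and 136 to 1.08, 2.43 and 0.8 TPM. For Fn1, S100a4, Klf4, Trem2, Ahnak and Rnase6 the WT c-kit+ libraries lay between the other groups. On the log2(TPM + 1) scale they were nearer to the libraries labelled IRF7-/- c-kit+. Fn1 in WT c-kit+, for instance, was at 9.54, 10.2 and 25.3 TPM. For Trem2 the distances to both groups were similar (-2.99 and -3.36), and which is smaller depends on the 1 added to each TPM. Gm42031, a gene model with no known role, instead stayed high in WT c-kit+ at 178, 157 and 161 TPM, where WT c-kit- had 298, 283 and 272 TPM and the libraries labelled IRF7-/- c-kit+ had 0.92, 2.53 and 1.09 TPM. Gm40645 overlaps Lilrb4a on the other strand, so reads of the pair cannot be told apart where strand was not used.

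**Figure D2:**
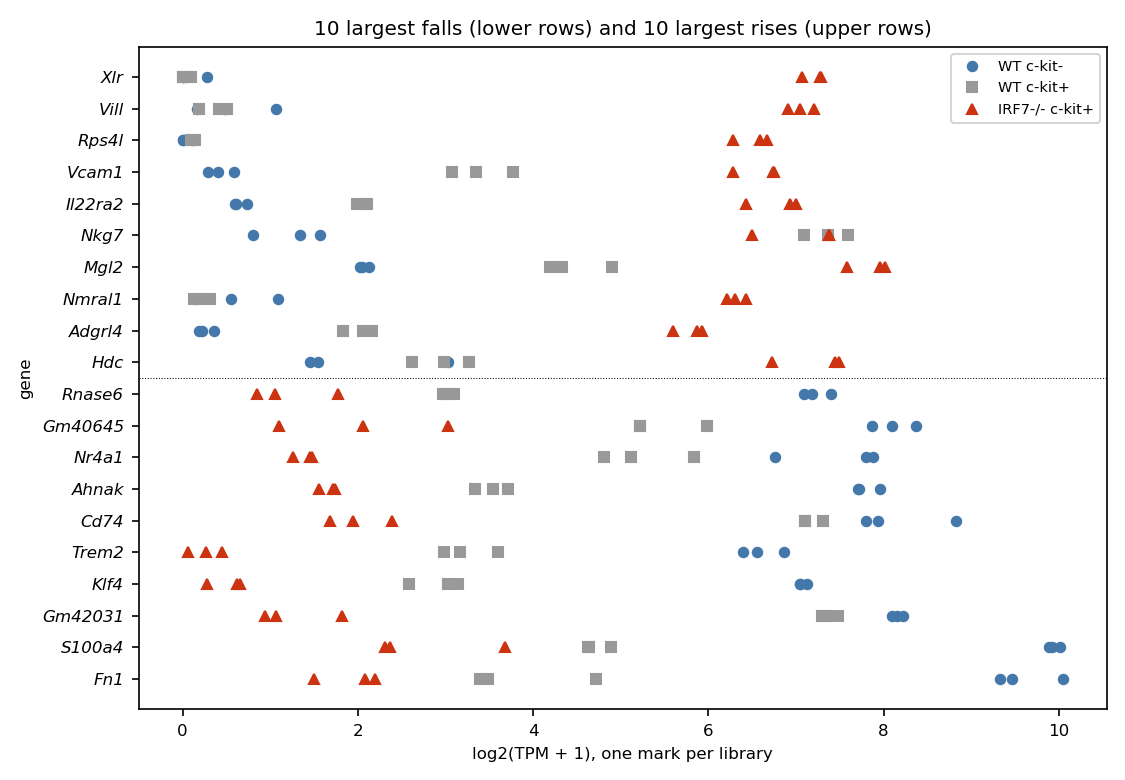
Level of the 10 genes with the largest rise and the 10 with the largest fall, as log2(TPM + 1) on the x axis, with 1 mark per library and 1 row per gene. The libraries labelled IRF7-/- c-kit+ and WT c-kit- stand apart in every row. WT c-kit+ lies with the first for Nkg7 and with the second for Xlr, Vill, Rps4l and Nmral1. It overlaps the second for Hdc and lies in between for most others.

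Called members were then counted for functional gene lists, 26 of which are plotted, beside the 8.4% higher and 11.9% lower over all genes. Some members, such as Clec4a1, Trem2 and Tlr8, reached 1 TPM in no library labelled IRF7-/- c-kit+. They passed the filter only through WT c-kit-, where they were high. Itga9 passed only through the libraries labelled IRF7-/- c-kit+. The counts of lists with such members are therefore a description and not a test.

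**Figure D3:**
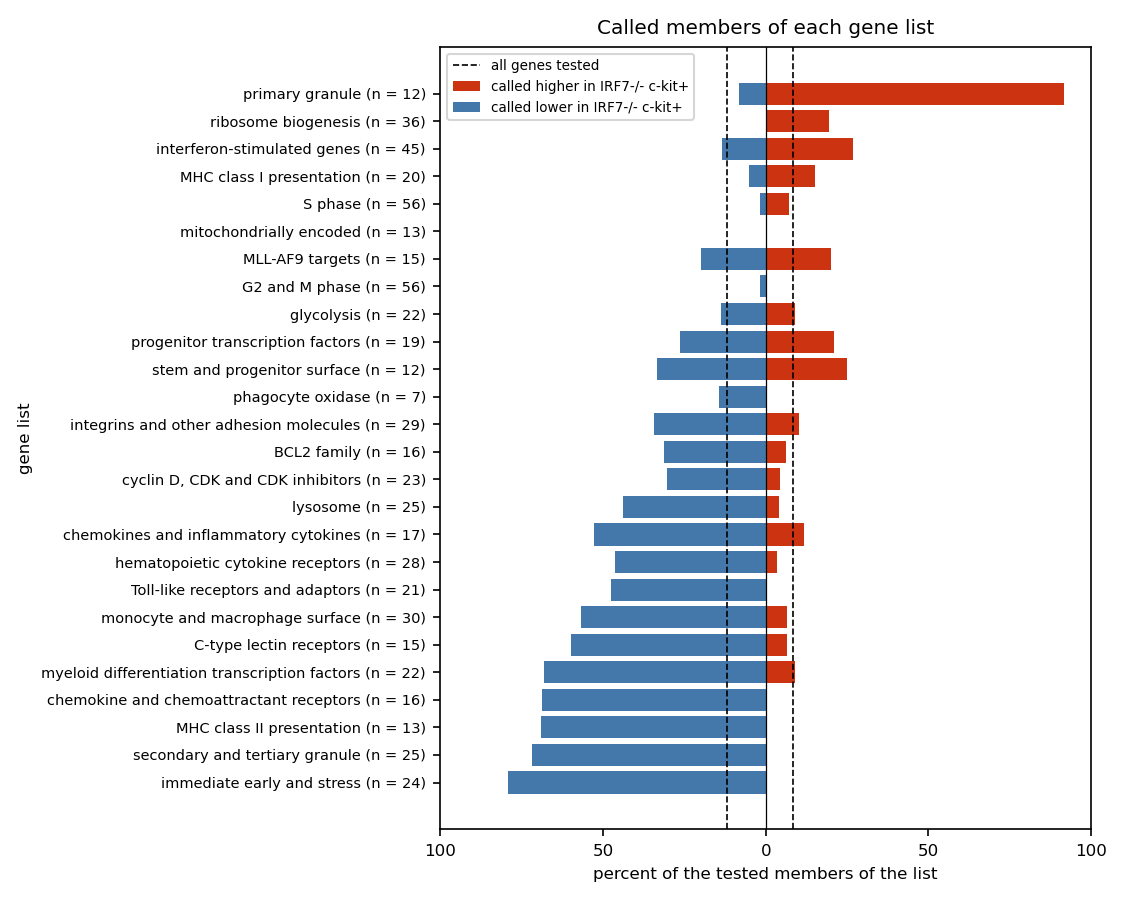
Percent of the tested members of each gene list (rows, with the number tested) that were called higher (bars to the right) or lower (bars to the left) in the libraries labelled IRF7-/- c-kit+ against WT c-kit-, with dashed lines at the shares over all genes. Primary granule genes stand out to the right at 91.7%, and immediate early genes to the left at 79.2%.

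Granule genes split by stage. Of 12 primary granule genes, 11 were called higher in the libraries labelled IRF7-/- c-kit+ and 1 lower, with a list median of 2.22 on the log2 scale. Elane, the gene of neutrophil elastase, rose from 1056, 837 and 752 TPM to 8771, 6341 and 8347 TPM (3.15 ± 0.17, limma adjusted p = 1.89e-05). Cathepsin G (Ctsg) rose from 411, 469 and 343 to 4464, 3345 and 4241 TPM, and myeloperoxidase (Mpo) from 451, 455 and 389 to 4313, 3252 and 3608 TPM. No library of either group reached the other for these proteins. Prtn3, proteinase 3, rose less, from 1501, 1515 and 1357 to 5485, 4372 and 5237 TPM (1.78). The exception was Ctsc, the dipeptidyl peptidase that removes the activation peptide from these serine proteases, which fell from 214, 197 and 196 to 8.31, 16.7 and 7.37 TPM (-4.19 ± 0.27, limma adjusted p = 3.66e-05). WT c-kit+ stood at 24.1, 33.4 and 33.3 TPM for Ctsc and at 4264, 5947 and 4355 TPM for Mpo, on the side of the libraries labelled IRF7-/- c-kit+ for both.

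Of 25 tested secondary and tertiary granule genes, 18 were called lower, none higher and 7 neither way, with a median of −2.52. Chil1, a chitinase-like protein of specific granules, fell from 79.6, 73.5 and 236 TPM to 0.98, 1.34 and 0.55 TPM (-5.87 ± 0.44, limma adjusted p = 7.02e-05). Mmp8, neutrophil collagenase, fell from 85.1, 54.8 and 84 to 1.04, 1.37 and 0.91 TPM, and Mmp9, gelatinase B of tertiary granules, from 52.9, 46.5 and 262 to 3.85, 4.61 and 3.93 TPM. WT c-kit- replicate 3 stood above replicates 1 and 2 in 23 of these 25 genes. S100a9, a subunit of the neutrophil cytosol protein calprotectin, stood at 2979, 3702 and 15307 TPM in WT c-kit-, and the libraries labelled IRF7-/- c-kit+ had 778, 1206 and 793 TPM. Ngp, a neutrophilic granule protein, was at 641, 892 and 3576 and 159, 294 and 139 TPM. The count of 18 lay between 15 and 20 when any 1 library was left out. Without WT c-kit- replicate 3, 17 genes of the list were called lower, and the differences shrank from -2.61 to −1.87 for S100a9, from -2.76 to −2.01 for Ngp and from -4.10 to −3.31 for Mmp9, all still called. Since these are sorted bulk samples, fewer cells of a type and less RNA per cell cannot be told apart. WT c-kit+ was above both groups for S100a9 and Ngp, with 53539, 26183 and 39286 TPM of S100a9 and 13554, 6915 and 10791 TPM of Ngp, but between them for Mmp8, with 4.02, 2.63 and 7.4 TPM. Hp, haptoglobin, was level at 1183, 1050 and 1194 and 1218, 1255 and 1195 TPM (0.10 ± 0.07, not called).

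**Figure D4:**
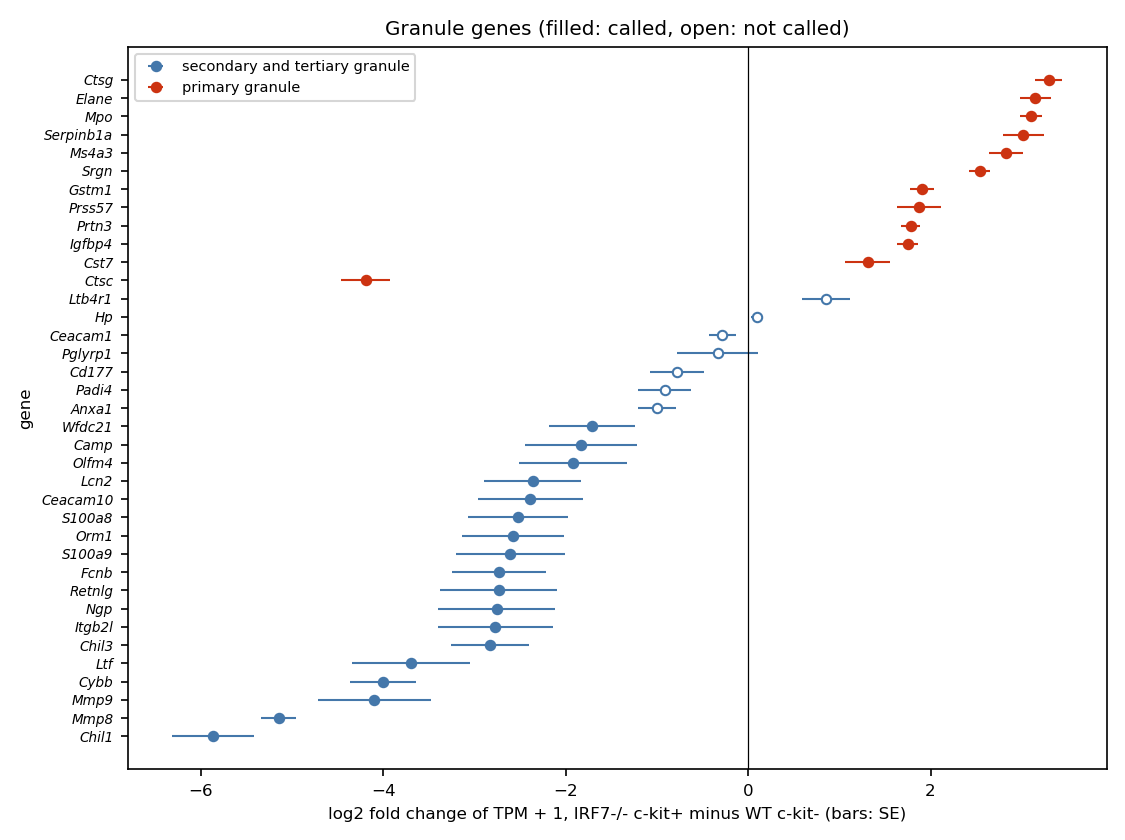
Log2 fold change of TPM + 1 between the libraries labelled IRF7-/- c-kit+ and WT c-kit- (x axis, bars are SE) for every tested gene of both granule lists (rows). All primary granule genes but Ctsc lie right of 0, and the called secondary and tertiary granule genes lie left of 0, from Chil1 at -5.87 to Wfdc21.

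Monocyte and macrophage genes were mostly lower. Of 30 tested surface genes 17 were called lower and 2 higher (median −1.26), and of 15 C-type lectin receptors 9 were lower and 1 higher. Trem2 and Msr1 of the first list passed the filter only through WT c-kit-, where they were high. The same held for Clec4a1, Clec4b1, Clec4n and Cd209a of the second. Both counts are therefore not read against the shares over all genes. Cx3cr1, the fractalkine receptor, fell from 141, 113 and 124 TPM to 1.74, 4.69 and 1.23 TPM (-5.28 ± 0.33, limma adjusted p = 3.42e-05). Lilrb4a, an inhibitory immunoglobulin-like receptor, fell from 225, 219 and 245 to 3.86, 3.26 and 4.69 TPM, and the lectin receptor Clec4a1 from 63.1, 58 and 66.2 to 0.32, 0.37 and 0.2 TPM. No library of either group reached the other for these genes. Csf1r, the receptor for macrophage colony-stimulating factor, chosen after its values were seen, fell from 423, 393 and 380.1 to 29, 32.8 and 25 TPM. The 2 surface genes that rose were Fcgr4, a receptor for IgG, from 8.74, 6.42 and 20.2 to 47.1, 37.4 and 49.5 TPM, and Trem3, an activating receptor, from 74.9, 68 and 124 to 229.7, 179 and 234 TPM. Ly6c2, which encodes the Ly6C antigen of monocytes, was at 3193, 2925 and 2783 and 2799, 2363 and 2204 TPM and was not called. Lilrb4a overlaps other annotated genes, on both strands.

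Sensing and degradation genes fell in part. Of 21 tested Toll-like receptor and adaptor genes, 10 were called lower and none higher. Tlr8, among those called lower, passed the filter only through WT c-kit-. Tlr8, an endosomal sensor of single-stranded RNA, fell from 34.5, 27.5 and 39.2 TPM to 0.3, 0.63 and 0.42 TPM (-4.57 ± 0.16, limma adjusted p = 6.24e-06), and Tlr13, a sensor of bacterial ribosomal RNA, from 62.1, 47.9 and 63.6 to 1.67, 5.1 and 2.07 TPM. Tlr4, the endotoxin receptor, picked after its values were seen, was at 3.4, 3.63 and 5.45 and 9.09, 6.78 and 7.96 TPM and was not called, so the list did not move as a block. Of 25 lysosomal genes 11 were lower and 1 higher. Lyz2, lysozyme of myeloid cells, fell from 10672, 7234 and 10454 to 401, 317 and 460.3 TPM, and cathepsin S (Ctss), which processes the invariant chain, from 621, 553 and 593 to 15.8, 30.4 and 10.4 TPM (-5.02 ± 0.33). Cathepsin D (Ctsd), picked in the same way, was at 241, 231 and 274 and 266, 251 and 283 TPM, with overlapping libraries and no call. Cybb, the catalytic subunit of the phagocyte oxidase, was the single gene called of 7 oxidase genes, falling from 371, 293 and 379.5 to 16, 38.9 and 13.9 TPM. WT c-kit+ kept 315, 213 and 312 TPM of Cybb.

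All 13 MHC class II presentation genes had a negative log2 fold change, and 9 were called lower (median −1.94). Cd74, the invariant chain, fell from 243, 222 and 453 TPM to 2.22, 4.24 and 2.84 TPM (-6.18 ± 0.30, limma adjusted p = 1.41e-05). The class II alpha and beta chains H2-Aa and H2-Eb1 fell from 103, 93.5 and 190.3 to 1.66, 2.42 and 2.55 TPM and from 64.3, 53.4 and 122 to 0.77, 1.03 and 1.64 TPM. WT c-kit+ kept 158, 136 and 137 TPM of Cd74 and 82.5, 72 and 69.2 TPM of H2-Aa. Cd74 was still lower there than in WT c-kit- (-1.01, limma adjusted p = 0.0202), and over the whole list the WT c-kit+ sums of 509 to 529 TPM lay between 1393 to 1914 TPM in WT c-kit- and 260.2 to 287 TPM in the libraries labelled IRF7-/- c-kit+. MHC class I genes went the other way in part, with 3 of 20 called higher and 1 lower (median 0.49). Tap2, a subunit of the peptide transporter, rose from 71.5, 77.4 and 74.2 to 178, 176 and 176 TPM (1.24 ± 0.05, limma adjusted p = 8.25e-06), and the chaperone Calr from 633, 673 and 645 to 1755, 1382 and 1626 TPM. H2-T23 fell by less than the threshold once IRF7-/- c-kit+ replicate 3 was left out (−0.95, against -1.06 with it).

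Receptors for soluble signals were mostly lower or not called. Of 28 hematopoietic cytokine receptors, 13 were called lower and 1 (Kit) higher. Il10ra, the IL-10 receptor chain, fell from 65.7, 60.3 and 65.1 TPM to 1.17, 1.1 and 0.88 TPM (-4.98 ± 0.10, limma adjusted p = 1.03e-06), and Il6st, the shared gp130 chain, from 68.8, 58.5 and 46.8 to 1.33, 3.94 and 1.09 TPM. Of 16 chemoattractant receptors 11 were lower and none higher. Fpr2, a formyl peptide receptor, fell from 56.8, 47.6 and 137 to 1.14, 0.82 and 0.65 TPM, and Ccr2, the CCL2 receptor, named after its values were seen, from 359, 243 and 224 to 30.2, 25.6 and 30.9 TPM. Of 17 chemokines and cytokines 9 were lower and 2 higher. Ccl3 fell from 375, 801 and 908 to 15.2, 17.8 and 25 TPM (-5.03 ± 0.35). Vegfa, an angiogenic growth factor, rose from 4.3, 9.54 and 20.6 to 73.9, 69.6 and 77 TPM (2.81 ± 0.46, limma adjusted p = 0.00198) and was at 110.2, 98.8 and 95.4 TPM in WT c-kit+.

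Among 29 tested adhesion genes 3 were called higher and 10 lower. Besides Vcam1, the risers included Itga9, the alpha9 integrin chain, which binds VCAM1 and tenascin and went from 0.01, 0.03 and 0.03 TPM to 7.94, 3.91 and 7.06 TPM (2.79 ± 0.24, limma adjusted p = 1.16e-04). Itgb7, which pairs with alpha4, fell from 463, 473 and 513 to 17, 56.4 and 15.7 TPM, and Itga1, a collagen-binding chain, from 71.5, 63.1 and 52.9 to 3.31, 11.8 and 3.01 TPM. Replicate 2 of the libraries labelled IRF7-/- c-kit+ was the highest of its group for both. Thbs1, thrombospondin-1, fell from 6.8, 17 and 75.6 to 0.49, 0.11 and 0.71 TPM, a difference of -3.97 that was −3.07 without WT c-kit- replicate 3 and −4.72 without WT c-kit- replicate 1. The chains of the VCAM1-binding integrin alpha4beta1 were not called. Itga4 was lower without overlap but under the fold threshold, at 84.4, 94.8 and 97.7 and 52.8, 58.5 and 50.7 TPM (-0.76, limma adjusted p = 3.11e-04). Itgb1 overlapped, at 71.4, 62.3 and 61 and 74.2, 67.5 and 71.9 TPM (0.13). Pecam1 and Icam1 differed by 0.14 and 0.09 and overlapped between groups. Both were lower in WT c-kit+ than in either group, at 37.9, 47.2 and 42.8 TPM for Pecam1 and 4.6, 5.54 and 5.2 TPM for Icam1.

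Interferon-stimulated genes did not move as a block. Of 45 tested, 12 were called higher (26.7%, against 8.4% of all genes), 6 lower (13.3%, against 11.9%) and 27 neither way, with a median of 0.74. Rtp4, a chaperone induced by interferon, rose from 0.25, 1.63 and 1.37 TPM to 97, 12.8 and 22.7 TPM (4.0 ± 0.71, limma adjusted p = 0.00286). Oas1g, a sensor of double-stranded RNA, rose from 1.52, 2.49 and 2.95 to 72.4, 20.1 and 32.2 TPM (3.51 ± 0.44), and Ddx58, which encodes RIG-I, from 2.96, 3.57 and 7.87 to 48.6, 13.9 and 22.1 TPM. Replicate 1 of the libraries labelled IRF7-/- c-kit+ was the highest of its group in 43 of the 45 genes. Without it 11 were called higher, and Rtp4 moved to 3.19, against 4.60 without replicate 2 of that group. The count called higher was 16 without that replicate 2, and 9 and 8 without WT c-kit- replicates 1 and 2. Of the Ifitm genes, which restrict viral entry, 3 were called lower. Ifitm6 went from 421, 387 and 747 to 8.77, 15.8 and 6.18 TPM (-5.56 ± 0.36), Ifitm3 from 624, 520.3 and 777 to 164, 20.6 and 37.7 TPM and Ifitm1 from 12.7, 13.9 and 19.9 to 1.1, 0.83 and 0.86 TPM. Ifitm3 was −4.45 without replicate 1 and −2.99 without replicate 2 of the libraries labelled IRF7-/- c-kit+.

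Promoter letters are shown for 4 interferon-stimulated genes of both directions, because an interferon-stimulated response element is where interferon regulatory factors bind. The last 200 bases before the RefSeq start site were read from GRCm38.p6, 5′ to 3′ on the gene's strand, and capitals mark each match to GAAANNGAA on either strand. Some neighbouring matches overlap.
Ifit1: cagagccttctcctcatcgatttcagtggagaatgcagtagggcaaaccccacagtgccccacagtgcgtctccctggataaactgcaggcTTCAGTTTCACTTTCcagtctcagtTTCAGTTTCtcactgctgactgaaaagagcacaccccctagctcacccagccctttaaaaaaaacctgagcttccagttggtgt
Isg15: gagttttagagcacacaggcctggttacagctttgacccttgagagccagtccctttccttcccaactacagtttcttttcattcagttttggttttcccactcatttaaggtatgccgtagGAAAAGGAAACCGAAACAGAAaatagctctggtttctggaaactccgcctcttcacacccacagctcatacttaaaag
Oas1g: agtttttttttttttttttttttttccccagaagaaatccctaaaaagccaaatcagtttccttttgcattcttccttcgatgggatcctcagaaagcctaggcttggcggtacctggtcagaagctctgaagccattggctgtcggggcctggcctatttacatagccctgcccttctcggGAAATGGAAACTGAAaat
Ifitm6: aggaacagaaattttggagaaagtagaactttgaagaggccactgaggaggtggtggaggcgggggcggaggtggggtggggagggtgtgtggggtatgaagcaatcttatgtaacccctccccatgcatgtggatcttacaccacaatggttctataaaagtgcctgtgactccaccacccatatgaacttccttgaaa
The stretches are chr19:34640689-34640888 (plus strand), chr4:156200819-156201018 (minus), chr5:120887614-120887813 (minus) and chr7:141016893-141017092 (minus). The Ifit1 and Isg15 stretches hold 3 matches each, the Oas1g stretch 2 and the Ifitm6 stretch 0. They do not stand for all genes of a direction, since Ifitm3, also called lower, held 2 matches in a wider window and Ifit2, called higher, held 0. Over that window, from 250 bases before to 50 after the start, 2317 of all 27025 promoters held a match (8.57%) and 716 of the 9495 of tested genes (7.54%), as did 21 of 34 interferon-stimulated genes with an entry (61.8%), 67 of 795 genes called higher (8.43%) and 117 of 1049 called lower (11.2%). A match is a description of letters and not a binding site. Isg15 and Ifit1, picked after their values were seen, were at 4.67, 6.73 and 9.62 and 0.58, 0.57 and 1.22 TPM in WT c-kit-. In the libraries labelled IRF7-/- c-kit+ they were at 104, 13.7 and 19.6 and 25.1, 2.7 and 4.43 TPM, with differences of 2.03 ± 0.71 (limma adjusted p = 0.0441) and 2.19 ± 0.69 (limma adjusted p = 0.0303). The Isg15 call was lost when any single WT c-kit- replicate or IRF7-/- c-kit+ replicate 3 was left out, and without IRF7-/- c-kit+ replicate 1 the differences were 1.17 and 1.34. The Ifit1 call was lost when any single WT c-kit- replicate was left out.

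Immediate early genes, which are switched on within minutes by signals or stress, were lower. Of 24 tested, 19 were called lower and none higher (79.2% lower, against 11.9% of all genes), with a median of −2.81. Atf3, a stress-induced factor, fell from 36, 68.5 and 130.0 TPM to 0.4, 0.12 and 0.4 TPM (-5.74 ± 0.42, limma adjusted p = 6.36e-05). Nr4a1, an orphan nuclear receptor, fell from 108, 222 and 234 to 1.39, 1.78 and 1.75 TPM, and Jun, an AP-1 subunit, from 180.3, 539 and 442 to 17.9, 5.54 and 50.5 TPM. Fos, the partner of Jun, was at 298, 806 and 751 and 54.5, 33 and 128 TPM. WT c-kit- replicate 1 was the lowest of its group in 20 of 24 genes, and IRF7-/- c-kit+ replicate 3 the highest of its group in 18. Jun moved to −3.49 without IRF7-/- c-kit+ replicate 2 and to −4.98 without replicate 3.

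**Figure D5:**
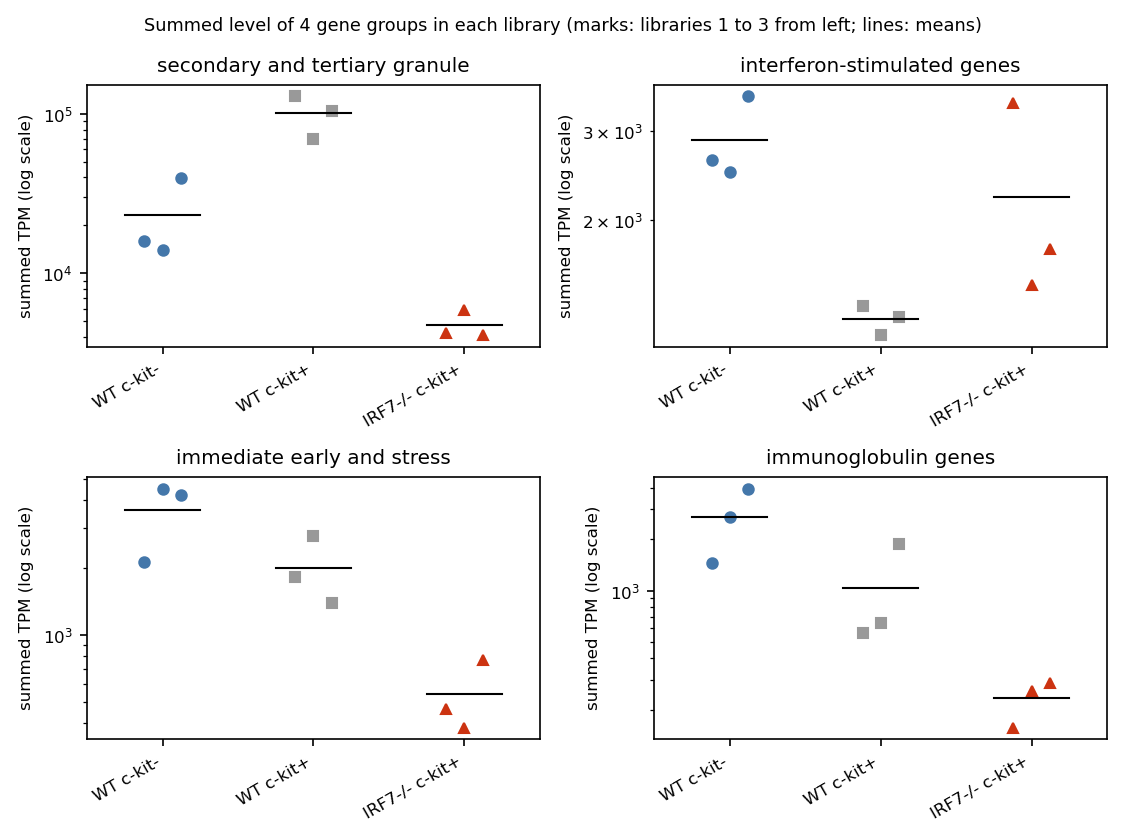
Summed TPM (y axis, log scale) of 3 gene lists and of all immunoglobulin genes in each library, replicates 1 to 3 from left with a line at the group mean. Secondary and tertiary granule sums were lowest in the libraries labelled IRF7-/- c-kit+ and highest in WT c-kit+, and WT c-kit- replicate 3 and IRF7-/- c-kit+ replicate 1 stand apart in the granule and interferon panels.

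Transcription factors of myeloid differentiation were mostly lower. Of 22 tested, 15 were called lower and 2 higher (median −1.49). Klf2, a quiescence factor of blood cells, fell from 84.6, 182 and 237 TPM to 3.01, 5.22 and 4.81 TPM (-4.89 ± 0.38, limma adjusted p = 7.82e-05), and Irf8, which directs the monocyte and dendritic lines, from 593, 494 and 435 to 28.6, 65.5 and 31.1 TPM. Cebpe, a factor of granulocyte maturation, rose from 25.5, 27.6 and 70.4 to 132, 139.8 and 135 TPM. Spi1, which encodes PU.1, was at 406, 384 and 462 and 274, 289.6 and 307 TPM, and Cebpa at 79.7, 82.9 and 81.4 and 92, 74.1 and 92.4 TPM, neither called. Tfec, the other gene called higher, was at the threshold (1.00) and was lost when any of 3 single libraries was left out. Irf8, Spi1 and Cebpa are the highest or best-known factors of the list and were picked after their values were seen.

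Progenitor factors moved both ways, with 4 of 19 called higher and 5 lower. Myb, an activator of progenitor growth, rose from 153, 165 and 140.2 TPM to 522, 513 and 522 TPM (1.76 ± 0.07, limma adjusted p = 7.12e-06). Gfi1, a repressor needed for neutrophil fate, rose from 8.22, 8.28 and 15.1 to 123, 92.2 and 121 TPM, and Ikzf2 (Helios) from 2.7, 2.25 and 14 to 50.5, 52.6 and 55.8 TPM. Myc, read after its values were seen, went from 46.6, 62 and 53.1 to 109, 136 and 107 TPM and fell just under the threshold without IRF7-/- c-kit+ replicate 2. Mecom, the EVI1 locus, was at 14.5, 16.1 and 27.6 TPM in WT c-kit- and 34.5, 32.9 and 33.6 TPM in WT c-kit+, but was listed at 0 in all 3 libraries labelled IRF7-/- c-kit+. Its close relative Prdm16 was at 9.36, 8.76 and 8.45 and 0, 0.16 and 0 TPM, and Bcl11a at 4.43, 6.44 and 6.77 and 0.06, 0.03 and 0.04 TPM. All 3 genes were present in both WT groups, so their low level did not follow the c-kit sort.

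Genes driven by MLL fusions were split as well. Of 15 tested, 3 were called higher, 3 lower and 9 neither way. Hoxa9, the best-known target, was at 162, 171 and 169 TPM and 240.4, 218 and 279 TPM (0.54 ± 0.09), and Meis1, its partner, picked after its values were seen, at 46.6, 35.5 and 35.4 and 61.9, 60.3 and 67.9 TPM, neither called. Pbx3, another Hox partner, rose from 9.55, 9.1 and 5.35 to 25.6, 45.2 and 23.6 TPM (1.83 ± 0.29, limma adjusted p = 0.00189). Mef2c fell from 166, 191 and 186 to 11.2, 42.4 and 5.64 TPM and Eya1, a transcriptional coactivator, from 29.4, 24.7 and 24.6 to 2.07, 5.49 and 2.95 TPM. WT c-kit+ kept 120, 130 and 131 TPM of Mef2c and 23.6, 27.7 and 30.9 TPM of Eya1. Replicate 2 of the libraries labelled IRF7-/- c-kit+ was the highest of its group for Pbx3, Mef2c and Eya1, and Mef2c was −4.34 without it and −2.98 without replicate 3.

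Stem and progenitor surface genes gave no single direction. Of 12 tested, Kit included, 3 were higher (25.0%, against 8.4% of all genes) and 4 lower (33.3%, against 11.9%). Kit, the gene of the sort marker, was among the 3. Cd63, a tetraspanin, rose from 20.3, 35.8 and 46 TPM to 671, 488 and 673 TPM (4.18 ± 0.29, limma adjusted p = 5.04e-05), and Prom1 from 0.78, 1.8 and 5.56 to 18.7, 14.5 and 17.7 TPM. Cd24a fell from 248, 324 and 335 to 29.6, 115 and 25.7 TPM, and was −3.40 without replicate 2 of the libraries labelled IRF7-/- c-kit+. WT c-kit+ had 401, 334 and 385 TPM of Cd24a. Cd34 was at 124, 132 and 103 and 83.3, 94.7 and 81.8 TPM and was not called. Flt3, picked after its values were seen, was at 63, 80.2 and 36.6 and 8.65, 56.9 and 7.93 TPM (-1.76, limma adjusted p = 0.0753), and would be called without the deviating replicate 2 (−2.64).

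Few cell cycle genes were called. Of 56 S phase genes 55 had a positive log2 fold change (median 0.63, against 0.03 over all genes tested). Of the 56, 4 were called higher (7.14%, near the 8.4% of all genes) and 1 lower (1.79%, against 11.9%). Mcm2, a subunit of the replicative helicase, was at 83.4, 91 and 76.2 TPM and 179, 171 and 183 TPM (1.09 ± 0.07, limma adjusted p = 4.84e-05). E2f2, an E2F factor, fell from 71.1, 61.4 and 64 to 9.47, 11 and 9.54 TPM. Of 56 G2 and M phase genes 1 was called, Tmpo, at 328, 275 and 275 and 123, 167 and 122 TPM, and 45 of the 56 had a positive log2 fold change (median 0.19). Mki67, picked after its values were seen, was at 158, 123 and 108 and 132, 168 and 133 TPM. Ribosome biogenesis genes had a median of 0.79, with 7 of 36 called higher (19.4%, against 8.4% of all genes) and none lower, and Wdr12 rose from 15.2, 18.2 and 12.2 to 47.1, 45.2 and 45.5 TPM. Mcm10 and Exo1, 2 of the S phase risers, were each lost without 1 of several libraries.

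Cyclin D, CDK and CDK inhibitor genes and the BCL2 family were called lower more often than all genes, and rarely higher. Of 23 genes of the first list, 1 was called higher (4.35%, against 8.4% of all genes) and 7 lower (30.4%, against 11.9%). Cdkn2c (p18) fell from 90.5, 74.2 and 101 TPM to 8.9, 15.3 and 6.54 TPM (-3.06 ± 0.28, limma adjusted p = 1.46e-04), and Ccnd1, cyclin D1, from 14.8, 22.7 and 16.2 to 0.71, 1.62 and 0.83 TPM. WT c-kit+ had 95.2, 76.7 and 88.65 TPM of Cdkn2c and 8.39, 11.2 and 8.37 TPM of Ccnd1. Cdkn1c (p57) rose from 0.93, 1.63 and 4.07 to 12.6, 6.51 and 14.3 TPM and was at 57.2, 44.9 and 50.9 TPM in WT c-kit+. Of 16 BCL2 family genes, 5 were lower (31.2%) and 1 higher (6.25%). Bbc3 (PUMA) fell from 22.4, 24.3 and 25.9 to 5.07, 3.88 and 4.67 TPM, Bmf from 28.3, 22.6 and 23.8 to 3.35, 2.37 and 2.88 TPM, and Bcl2 itself from 21.6, 29.1 and 22.6 to 5.89, 10.2 and 5.32 TPM (-1.68 ± 0.24). The falling members thus included both promoters and inhibitors of cell death. Of 22 glycolytic genes 2 were higher (9.09%) and 3 lower (13.6%), near the shares over all genes, and none of 13 mitochondrially encoded genes was called. Slc2a3, 1 of the 3, was at 7.36, 8.91 and 34.8 and 4.78, 3.81 and 3.37 TPM, and its call was lost without WT c-kit- replicate 3 (−0.88) or without any single replicate of the libraries labelled IRF7-/- c-kit+.

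Genes the study names were read out for this contrast. Tgif1, a repressor of TGF-beta signals, fell from 22.7, 30.1 and 32.7 TPM to 9.45, 10.8 and 7.84 TPM (-1.51 ± 0.17, limma adjusted p = 3.56e-04). Smad3 was at 10.04, 11.7 and 16.3 and 6.91, 6.49 and 7.46 TPM (-0.76, under the fold threshold), and Crebl2 at 7.41, 5.48 and 7.73 and 2.43, 2.02 and 2.08 TPM. Dixdc1 rose from 0.09, 0.07 and 0.06 to 3.02, 2.38 and 3.42 TPM. Rab34 was at 0.74, 0.53 and 0.37 and 1.68, 1.97 and 3.12 TPM, and its call was lost without IRF7-/- c-kit+ replicate 3 or WT c-kit- replicate 3. Dixdc1 and Rab34 were also low in WT c-kit+. The study took genes for quantitative PCR from those lower in IRF7-/- c-kit+ than in both WT groups of these samples. The direction of genes chosen in this way is not independent evidence. The study's primer list also holds Dixdc1 and Rab34, which ran the other way here. In the libraries labelled IRF7-/- c-kit+ both were higher than in WT c-kit- (1.87 and 1.06) and WT c-kit+ (1.72 and 1.05).

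Called genes were counted by distance from Irf7 on chromosome 7. Within 5 Mb 25 of 89 genes were called (28.1%, against 20.3% overall), 14 higher and 11 lower, whereas within 20 Mb the share was 20.4% and over the rest of the chromosome 20.3%. Besides Ifitm1, Ifitm3 and Ifitm6, which lie 245 to 293 kb away, the window holds Ccnd1 and Cdkn1c. Lsp1, a leukocyte actin-binding protein picked after its values were seen, fell from 864, 839.9 and 1023 TPM to 14.2, 47.5 and 19 TPM, and Tspan32, a tetraspanin picked in the same way, rose from 23, 21.9 and 31 to 123, 127 and 122 TPM.

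Markers of cells that a sort could carry along were read in all libraries. Over the 13 genes of the T cell list the summed level was 17.5 to 20.4 TPM in WT c-kit- and 4.99 to 7.32 TPM in the libraries labelled IRF7-/- c-kit+, and over the 8 genes of the NK cell list 8.94 to 10.7 and 1.87 to 5.03 TPM. Erythroid genes summed to 11.3 to 14.9 and 3.97 to 11.3 TPM over 12 genes, and platelet genes to 7.31 to 9.85 and 11.4 to 16.8 TPM over 11 genes. These levels were low throughout. The 17 endothelial and stromal genes summed to 132 to 163 and 144 to 173 TPM, mostly Pecam1 and Lepr, and the 8 genes of the plasmacytoid dendritic cell list to 150.2 to 188 and 193 to 391 TPM, mostly Bst2 and Tcf4. Of the latter list Siglech was at 3.98, 4.2 and 1.82 and 0.09, 0.14 and 0.03 TPM. The marrow macrophage list, of which Vcam1 is a member, summed to 165 to 197 and 167 to 227 TPM over 14 genes. Its defining genes C1qa, at 0.43, 0.77 and 0.5 and 1.65, 0.97 and 1.68 TPM, and Timd4, at 0, 0.03 and 0.06 and 0.11, 0.03 and 0.11 TPM, were near 0, and Hmox1 fell from 61.8, 57.8 and 58.4 to 7.49, 8.45 and 8.91 TPM. Slc40a1, the iron exporter, rose from 0.94, 1.68 and 4.77 to 23.1, 17.4 and 24.8 TPM.

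Mast cell, basophil and eosinophil genes rose in part. The 12 mast cell and basophil genes summed to 39.6 to 69.1 TPM in WT c-kit- and to 209 to 261 TPM in the libraries labelled IRF7-/- c-kit+, most of it Hdc, and the 9 eosinophil genes to 11.3 to 21.8 and 175 to 199 TPM, most of it Siglecf. Siglecf, a sialic acid receptor of eosinophils, rose from 3.24, 4.3 and 4.17 to 176, 144 and 181 TPM (5.10 ± 0.13, limma adjusted p = 1.99e-06). Prg3 rose from 0, 0.14 and 0.73 to 8.49, 8.46 and 7.86 TPM and the basophil protease Mcpt8 from 10.6, 17.9 and 14.2 to 38.5, 39.5 and 44.7 TPM. The defining eosinophil peroxidase Epx stayed at 0, 0.11 and 0 and 0.13, 0.26 and 0.06 TPM, and the IgE receptor chain Fcer1a at 0, 0.19 and 0.22 and 0, 0 and 0 TPM. Ear2, an eosinophil-associated ribonuclease, fell from 10.5, 5.25 and 13.4 to 1.69, 1.08 and 1.04 TPM (-2.17 ± 0.31, limma adjusted p = 0.00117). Of 4 tested eosinophil genes 3 were thus called higher and 1 lower, and the peroxidase did not pass the filter.

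Immunoglobulin genes, grouped after their values were seen, were lower. Of 119 tested variable and constant genes, 95 were called lower and none higher. In 36 of the 119 no library labelled IRF7-/- c-kit+ reached 1 TPM, so these passed the filter only through WT c-kit-, where they were high, and the count is not read against the share over all genes. All immunoglobulin genes summed to 1447, 2706 and 3954 TPM in WT c-kit-, to 157, 259 and 286 TPM in the libraries labelled IRF7-/- c-kit+ and to 560, 647 and 1884 TPM in WT c-kit+. Igkc, the kappa constant gene, fell from 167, 353 and 645 TPM to 19.5, 22 and 35.1 TPM (-3.71 ± 0.48, limma adjusted p = 6.82e-04), and Ighm, the heavy chain of IgM, from 426, 366 and 459.9 to 55, 125 and 67.8 TPM. Jchain, which joins secreted IgM and IgA and marks plasma cells, fell from 21.9, 51.2 and 64.7 to 1.5, 2.46 and 3.42 TPM. The groups did not overlap for these genes. The 12 B cell genes summed to 634 to 1152 and 109 to 187 TPM, nearly all from Ighm and Igkc. Pax5 was at 0, 0.06 and 0.04 and 0.04, 0.01 and 0.03 TPM and Cd79a at 0.47, 0.55 and 1.11 and 0.51, 0.4 and 0.78 TPM. Cd22, another gene of the list, was called lower, from 8.81, 7.77 and 12.9 to 0.15, 0.16 and 0.12 TPM (-3.21). Sdc1, a plasma cell gene picked after its values were seen, fell from 1.71, 1.59 and 1.98 to 0.1, 0.55 and 0.05 TPM (-1.18). Both passed the filter only through WT c-kit-. Mzb1, picked in the same way, was not called (-0.89). Reads of near-identical variable genes can be split among copies, so the level of a single one is uncertain. The share of these transcripts from cells other than leukemia cells was not tested.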

How the data were processed

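Libraries were made with the TruSeq RNA kit v2 from total RNA of sorted cells, and the authors deposited 1 table of 55536 Ensembl mouse genes with 1 value per library. The header names no unit. Columns summed to 987468 to 992231, so the values were read as TPM as deposited, and the aligner, genome build, annotation and strand setting are not given in the sources used here. The study's text calls the assay a microarray, while the labels say RNA sequencing. TPM keeps no read depth, so the depth per library is unknown and no counting interval is given.

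Groups came from the labels. Genes reaching 1 TPM in 3 or more of 6 libraries were tested on log2(TPM + 1) with limma 3.58.1 (trend, R 4.3.3) and Benjamini-Hochberg adjustment, 3 against 3, which understates the change of low genes. A call needed a move of 1 or more on the log2 scale, either way, with an adjusted p under 0.05. Named genes were Irf7, Kit and Vcam1, the 10 largest rises and falls among called genes with no overlap between groups and a mean of at least 5 TPM, up to 3 called rises and falls per list, the highest members of a list described by level, and genes the study names. The other genes named were picked after their values were read. Members and gene lists were chosen with earlier results of these data known. Coordinates came from GENCODE M21 (GRCm38), which held all 55536 identifiers, and promoters from RefSeq, matched by symbol for 9495 of 13510 tested genes. Alternatives were another filter, pseudocount, scaling, set of libraries, replicate block, variance model and threshold.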

Additional observations from a re-analysis of the deposited data

How the results depend on the processing

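The count of 2738 called genes lay between 2659 and 2799 when any 1 library was left out (1096 to 1183 higher, 1532 to 1634 lower). With no fold threshold 8023 genes passed, 4142 higher and 3881 lower, and 18 lysosomal genes were lower in place of 11. With a filter of 5 TPM, 752 genes were called higher in place of 1135. Kit, Vcam1 and Irf7 kept their call and direction under every alternative run. Leaving out 1 library gave 4.77 to 5.48 for Kit, 6.09 to 6.32 for Vcam1 and −1.76 to −1.26 for Irf7. Of 134 named genes, 124 kept their side of the threshold under every alternative that could be computed for them, and none reversed. Most of the 134 were picked as the largest called changes, so keeping a call was largely set by that choice. Isg15, Ifit1 and Myc, which are outside the 134, each lost their call when certain single libraries were left out. With replicate number as a block, 2749 genes were called (1133 higher, 1616 lower), and 1 of 134 named genes, Slc2a3, lost its call (limma adjusted p = 0.0525). Deviations of samples with the same number from their group means correlated weakly (0.0372, 0.0673 and 0.0481). The labels state no pairing, and values this small cannot show whether samples of a number share a batch. Each sample still correlated best with its own number, a hint from the data and not the design. Depth is unknown and groups hold 3 libraries, so low genes and small differences are limited most.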
